A study of Mus musculus with 37 samples.

Results

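The 10 genes described here encode enzymes that handle superoxide and peroxides in liver: Cat, Sod1, Sod2, Gpx1, Gpx4, Prdx1, Prdx5, Prdx6, Txn1 and Uox. They were taken by name, as every probe whose symbol is one of these 10. No measured value entered that rule, but earlier results of these data were known when the genes were chosen. They have 20 probes among the 30146 probes of 21450 gene symbols in the assay, and 19 of the 20 probes, with at least 1 for each of the 10 genes, had enough counts to be tested. Adult F0 mice of the outbred strain Crl:CD1(ICR) were given the ammonium salt of HFPO-DA, a short-chain perfluoroalkyl ether acid used in making fluoropolymers, or its vehicle, deionized water, by oral gavage once a day. Each sex had a vehicle group (0 mg/kg), a low group at 0.1 mg/kg, a middle group at 0.5 mg/kg and a high group at 5 mg/kg. RNA in scraped sections of formalin-fixed, paraffin-embedded liver was read by TempO-Seq, in which pairs of short oligonucleotides are ligated on their target RNA and the ligated products are counted. In order of dose the groups held 5, 5, 5 and 4 males and 5, 5, 4 and 4 females.

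Males started at about 6 weeks of age and received 84 to 85 doses through mating. Females started at about 11 weeks, were mated, gave birth and nursed, and received 53 to 65 doses, the last on lactation day 20 or 21. Sex, age, number of doses and reproductive state therefore cannot be told apart in any comparison of males with females, and the controls of each sex went through the same schedule without HFPO-DA. Library totals ranged from 2101495 to 10548222 counts in males and from 7952605 to 13878254 in females, and the shallowest libraries were 1 male at 5 mg/kg and 1 male at 0.5 mg/kg, both under 3000000 counts. The hepatocyte markers Alb and Ttr had medians of 8974 and 4521 CPM (counts scaled to a common library total of 1000000) over all mice, so the labelled tissue's defining markers were present. The summed level of the 7 measured hepatocyte markers was 14285 to 18160 CPM in control males against 11351 to 13190 at 5 mg/kg, and 16565 to 23442 CPM in control females against 13726 to 16942 at 5 mg/kg. At 5 mg/kg 3 of these 7 markers fell in males, where 8.49% of all tested probes fell, and 2 fell in females, where 2.26% did. The fall of these markers stands beside each comparison at that dose, and its part in them was not tested. In bulk liver fewer cells of a type and less RNA per cell cannot be told apart.

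Superoxide dismutases turn superoxide into hydrogen peroxide, Sod1 mainly in the cytosol and Sod2 in mitochondria. Hydrogen peroxide is removed by catalase in peroxisomes, by glutathione peroxidases at the expense of glutathione, and by peroxiredoxins, most of which are reduced again by thioredoxin (Txn1). Uox, urate oxidase, stands on the other side of this balance: it is a peroxisomal enzyme of purine breakdown that makes hydrogen peroxide while oxidising urate.

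Gpx1 and Gpx4 are the only selenoproteins among the 10 genes, which is why the sequence around that codon is shown for both. In each, an in-frame TGA is read as selenocysteine in the active site, and the capitals mark that codon in the principal GENCODE transcript (GRCm38). In Gpx1 it is codon 47, in exon 1 of 2, at chr9:108339451-108339453 on the plus strand. In Gpx4 it is codon 73, in exon 3 of 7, at chr10:80054737-80054739 on the plus strand.
Gpx1: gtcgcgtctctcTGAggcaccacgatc
Gpx4: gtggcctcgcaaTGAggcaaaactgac
The other 8 genes have no such codon in their principal transcript.

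At 5 mg/kg, 2 of the genes rose and 1 fell in males, where 4.21% of all tested probes rose and 8.49% fell. In females 1 rose, where 2.26% of all tested probes did. Gpx4, which reduces lipid hydroperoxides in membranes, was 1.65-fold higher in males and 1.66-fold higher in females. Gpx1, the abundant cytosolic glutathione peroxidase, was 1.49-fold higher in males, and Uox was at 0.565 times the control level in males. Cat, Prdx1, Prdx5 and Prdx6 did not pass in either sex at this dose with edgeR, and DESeq2 called none of these 4, giving Prdx5 no adjusted p in females. Sod1 and Txn1 in both sexes, and Gpx1 and Sod2 in females, did not pass in the edgeR fit reported here but passed with DESeq2 and, except for Txn1 in females, with at least 1 other edgeR setting. At 0.1 and 0.5 mg/kg 0 of the 10 genes passed in either sex.

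**Figure D1:**
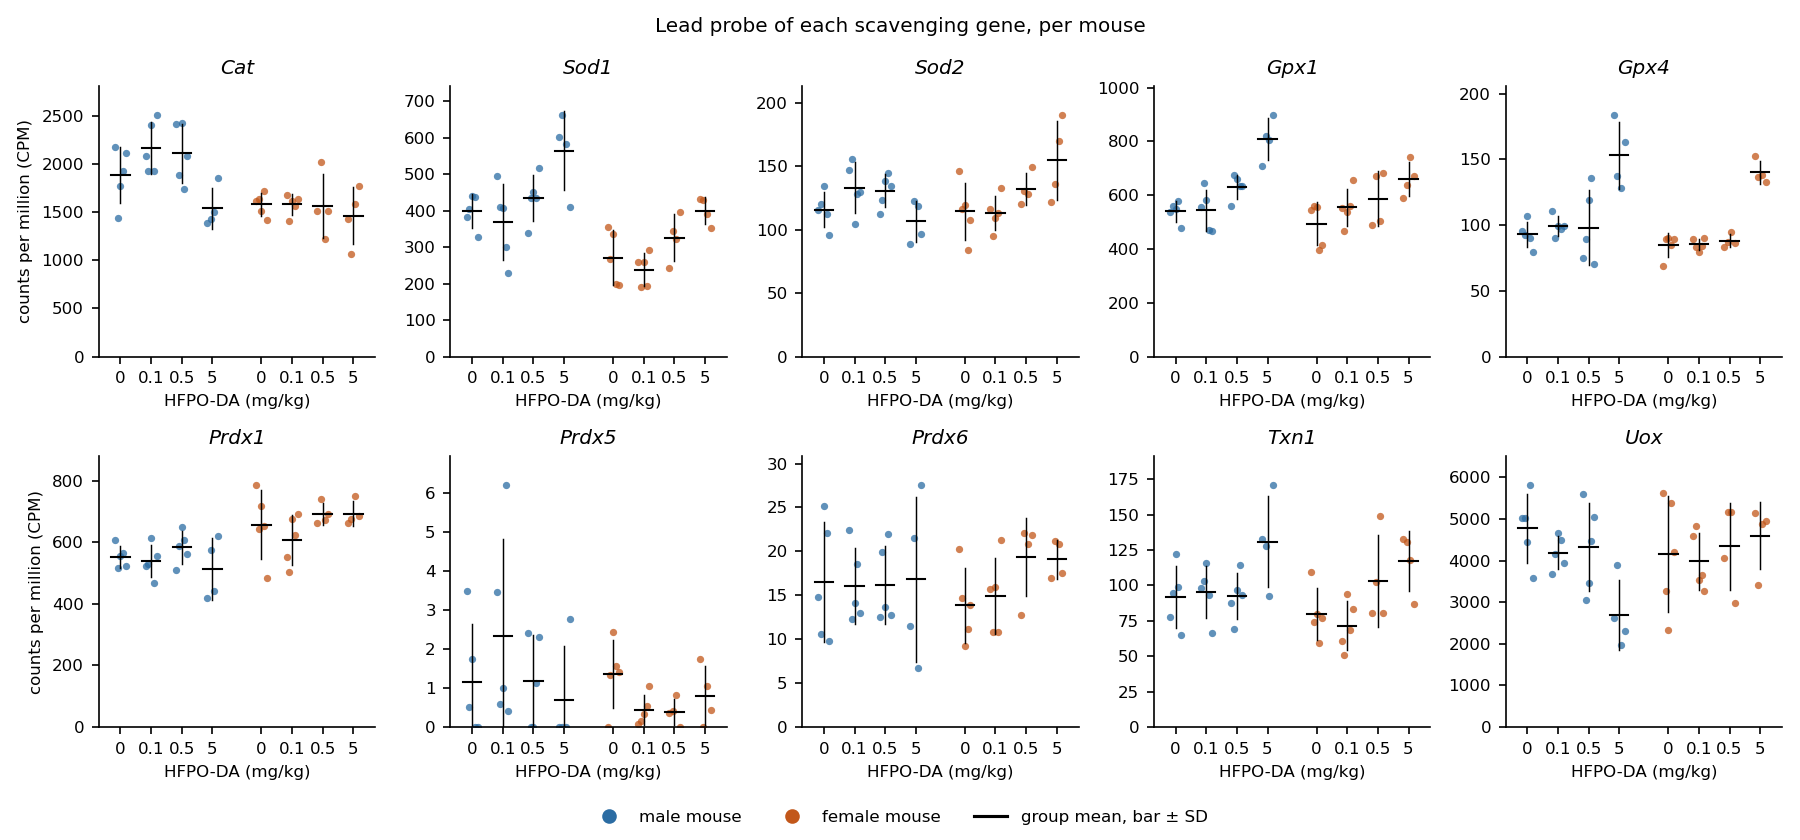
CPM (y axes, linear from 0, a scale of its own for each gene) of the most counted probe of each of the 10 genes against HFPO-DA dose, with 1 point per mouse, males in blue and females in orange. Horizontal lines are group means and vertical bars ± SD over 4 or 5 mice, and Gpx4 at 5 mg/kg lies above every control mouse of its sex.

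Each gene is described by its lead probe, the one with the highest total count over all mice. The tests are edgeR's quasi-likelihood test over 18570 probes with Benjamini-Hochberg adjustment, and a probe is called at an adjusted p under 0.10. In males at 5 mg/kg 3 of 10 lead probes and 5 of 19 probes were called, where 12.7% of all tested probes were. In females 1 of 10 lead probes and 2 of 19 probes were called, where 4.52% of all tested probes were. These are counts of a short list chosen by name with earlier results of these data known, and no test of the list as a whole was made. The median log2 fold change over the 10 lead probes was -0.03 in males and 0.43 in females, beside -0.12 and -0.01 over all tested probes. With DESeq2's size factors in place of TMM the male median over all tested probes moved up by 0.09, which is more than the distance of the members' male median from 0.

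Gpx4 rose in both sexes. Its lead probe was at 95.5, 92.1, 107, 90.0 and 79.9 CPM in the 5 control males and at 184, 137, 128 and 163 CPM in the 4 males at 5 mg/kg. In females it was at 68.6, 89.4, 90.3, 85.1 and 89.2 CPM in controls and at 152, 137, 138 and 132 CPM at 5 mg/kg. All treated mice of both sexes lay above all controls of their sex, a separation shown upward by 2.78% of tested probes in the male comparison and by 4.4% in the female one. The males' log2 fold change was 0.72 ± 0.16 (SE; adjusted p = 0.0022). That of the females was 0.73 ± 0.16 (adjusted p = 0.0031). The difference between the sexes, female minus male, was 0.01, with an approximate 95% interval from -0.44 to 0.45, a range that includes differences of up to 0.44 either way.

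At lower doses Gpx4 stayed near its controls. Males averaged 99.3 ± 7.47 CPM (SD, n = 5) with 0.1 mg/kg and 98.1 ± 28.6 CPM (n = 5) with 0.5 mg/kg, against 92.8 ± 9.72 CPM (n = 5) without HFPO-DA. Females averaged 85.3 ± 4.42 (n = 5) and 88.0 ± 4.84 CPM (n = 4), against 84.5 ± 9.10 CPM (n = 5). Between 0.5 and 5 mg/kg the males' log2 difference was 0.64 ± 0.16 (adjusted p = 0.0129) and that of the females 0.67 ± 0.17 (adjusted p = 0.0347). The female call was lost without 1 of 6 mice, females 1, 2 and 4 at 0.5 mg/kg and females 1, 2 and 3 at 5 mg/kg, at adjusted p of 0.101 to 0.156. In that direct comparison of 5 with 0.5 mg/kg 3 of 10 lead probes were called in males (8.73% of all tested probes) and 1 of 10 in females (1.48%). Of the 5 males at 0.5 mg/kg, 1 reached 136 CPM, within the range at 5 mg/kg.

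The other probes of Gpx4 carried fewer counts. The probe Gpx4_71385 rose in females, from 28.4 to 33.2 CPM in the controls to 35.9 to 62.7 CPM at 5 mg/kg (log2 fold change 0.82 ± 0.22, adjusted p = 0.0241). In males the same probe lay at 18.3 to 41.6 CPM in controls and at 23.6 to 52.8 CPM at 5 mg/kg, and its log2 fold change of 0.36 ± 0.23 was not called (adjusted p = 0.35). The shallowest library of the series, a male at 5 mg/kg, gave the lowest of these treated values from 63 counts. Gpx4_31541 had 247 counts over all mice and Gpx4_77704 had 7, too few to be tested in the second case and without a call in the first. Over the 6 comparisons with control, the 3 genes whose log2 fold changes lay nearest to those of Gpx4 were mt-Nd6, a mitochondrially encoded subunit of complex I, Etfb, a subunit of the mitochondrial electron transfer flavoprotein, and Gm45233, a predicted gene, with root mean square differences of 0.084, 0.095 and 0.097. These 6 comparisons share control mice within each sex.

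Gpx1 rose in males with both of its probes. The lead probe was at 539, 561, 548, 578 and 477 CPM in control males and at 707, 820, 806 and 898 CPM at 5 mg/kg, with no overlap between the groups. Its log2 fold change was 0.58 ± 0.14 (adjusted p = 0.0057), and that of the second probe, Gpx1_30525, was 0.74 ± 0.23 (adjusted p = 0.0362), again with no overlap. At 0.5 mg/kg the lead probe averaged 632 ± 44.5 CPM (n = 5) in males, between the control mean of 541 ± 38.4 CPM and the mean at 5 mg/kg of 808 ± 78.4 CPM (n = 4), but its log2 fold change of 0.23 was not called.

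In females the probes of Gpx1 did not move together. The lead probe was at 544, 559, 555, 398 and 414 CPM in controls and at 591, 640, 740 and 673 CPM at 5 mg/kg, all above the controls (log2 fold change 0.42 ± 0.14, adjusted p = 0.107). The call depended on the setting: DESeq2 gave an adjusted p of 0.0128, and edgeR called Gpx1 under 5 other settings (adjusted p 0.0789 to 0.0998) and without female control 1 or 2. The second probe lay at 114 to 244 CPM in control females and at 130 to 189 CPM at 5 mg/kg, with a log2 fold change of -0.21 ± 0.23. The difference between the sexes in the response of the second probe, female minus male, was -0.96 ± 0.33 (adjusted p = 0.269), which did not pass the test.

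**Figure D2:**
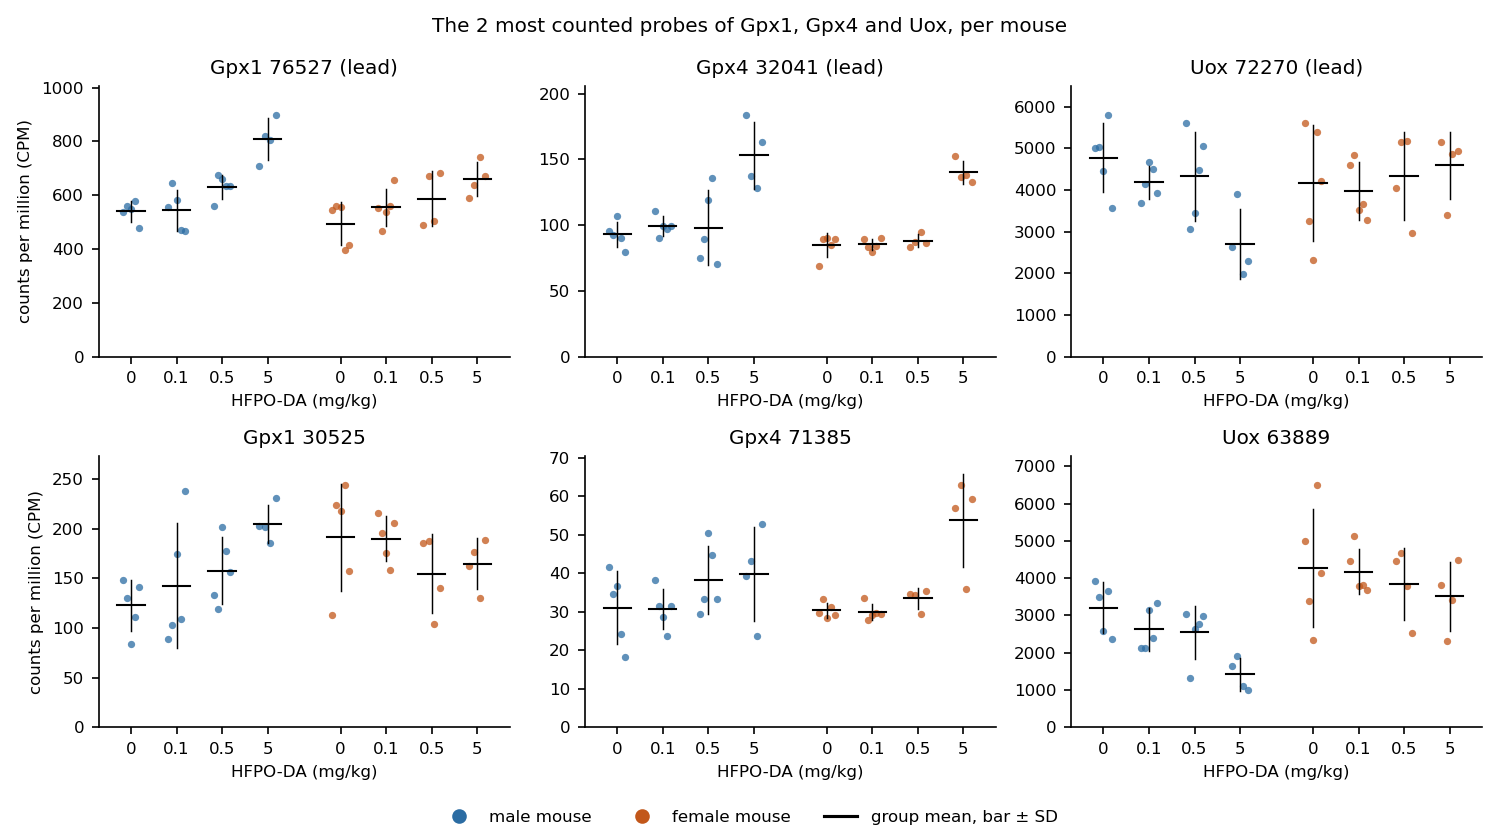
CPM per mouse (y axes, linear from 0) against dose for the lead probe (top) and the second most counted probe (bottom) of Gpx1, Gpx4 and Uox, with lines for group means and bars ± SD over 4 or 5 mice. Both probes of Gpx1 rise and both of Uox fall in males at 5 mg/kg, while the second Gpx1 probe in females runs from 114 to 244 CPM in controls and from 130 to 189 CPM at 5 mg/kg.

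Uox was lower in males at 5 mg/kg with both probes. The lead probe was at 5018, 5026, 4457, 5804 and 3574 CPM in control males and at 2623, 3898, 1979 and 2302 CPM at 5 mg/kg, so that 1 treated mouse lay above the lowest control. The log2 fold change was -0.82 ± 0.22 (adjusted p = 0.0112). The second probe, Uox_63889, ran from 2375 to 3924 CPM in controls and from 1006 to 1913 CPM at 5 mg/kg without overlap, as 4.8% of tested probes did downward (log2 fold change -1.18 ± 0.25, adjusted p = 0.0012). At 0.1 and 0.5 mg/kg the lead probe averaged 4189 ± 401 and 4330 ± 1065 CPM in males, against 4776 ± 825 CPM in controls (n = 5 each). Between 0.5 and 5 mg/kg in males it fell by 0.68 on the log2 scale (SE 0.22, adjusted p = 0.0574), and this call was lost without the libraries under 3000000 counts, without male 1 at 0.5 mg/kg or without male 3 at 5 mg/kg.

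In females Uox spread widely among controls and showed no call. The lead probe was at 5621, 3264, 2327, 5388 and 4216 CPM in controls and at 5154, 3407, 4867 and 4949 CPM at 5 mg/kg, and the groups overlapped. The log2 fold change was 0.14 ± 0.21, with an approximate 95% interval from -0.28 to 0.56. The second probe lay on the other side of 0, at -0.28 ± 0.24, and was not called (adjusted p = 0.866). Female minus male, the response differed by 0.96 ± 0.30, which did not pass the adjustment over all probes (unadjusted p = 0.0027, adjusted p = 0.205). It passed without male 2 at 5 mg/kg, the treated male with the highest value, at 1.20 ± 0.30 (adjusted p = 0.0419). In that test of the difference between the sexes 0 of 10 lead probes were called at 5 mg/kg by edgeR and by DESeq2, where edgeR called 0.63% of all tested probes, and 2 of 10 had an unadjusted p under 0.05, Uox and Sod2, as 10.7% of all tested probes did. At the lower doses 0 of 10 were called in that test and 0 had an unadjusted p under 0.05. Over all tested probes 0% at 0.1 mg/kg and 0.0108% at 0.5 mg/kg were called, and 4.46% and 5.13% had such a p.

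**Figure D3:**
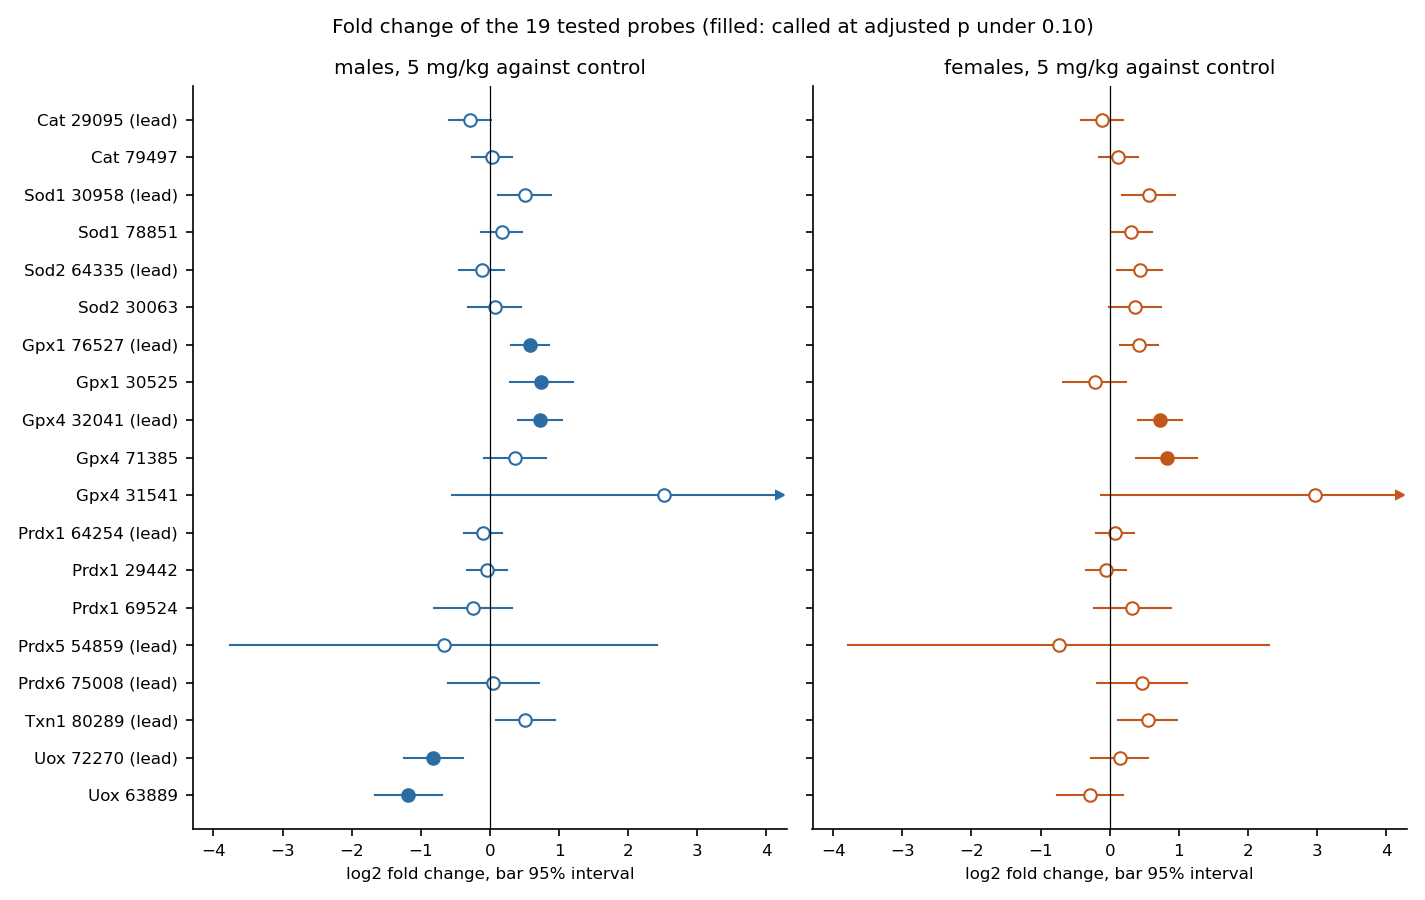
Log2 fold change at 5 mg/kg against the control of the same sex (x axes) for the 19 tested probes (y axis), males left in blue and females right in orange, with bars for approximate 95% intervals and arrowheads where a bar runs off the axis. Filled points are the called probes, 5 in males and 2 in females.

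Catalase was not called against controls at any dose. Its lead probe was at 2172, 1440, 1774, 1927 and 2119 CPM in control males and at 1385, 1425, 1505 and 1853 CPM at 5 mg/kg (log2 fold change -0.29 ± 0.15, adjusted p = 0.252), with an approximate 95% interval from -0.59 to 0.01. In females it was at 1614, 1639, 1513, 1719 and 1417 CPM in controls and at 1433, 1066, 1589 and 1773 CPM at 5 mg/kg (log2 fold change -0.11, interval from -0.41 to 0.19). A rise of the size seen for Gpx4 thus lay outside these intervals in both sexes. The second probe, Cat_79497, gave 0.03 in males and 0.12 in females. Between 0.5 and 5 mg/kg in males the lead probe of Cat fell by 0.45 on the log2 scale (SE 0.15, adjusted p = 0.079), while Cat_79497 gave -0.19 (adjusted p = 0.497), and the call on the lead probe was lost under the same omissions.

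Uox makes hydrogen peroxide in the peroxisome and catalase removes it there, so the log2 ratio of their lead probes, Uox to Cat, was taken within each mouse. The ratio of probe counts is not a ratio of transcripts, since probes differ in efficiency, but its change between groups does not depend on that.

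In males the log2 ratio was 1.21, 1.80, 1.33, 1.59 and 0.75 in the 5 controls and 0.92, 1.45, 0.39 and 0.31 in the 4 mice at 5 mg/kg. It averaged 1.34 ± 0.40 (SD, n = 5) in male controls and 0.77 ± 0.53 (n = 4) at 5 mg/kg, a difference of -0.57 that did not pass (two-sided exact permutation p = 0.111, adjusted p = 0.222). With all probes of each gene summed the male difference was -0.87 and passed (exact permutation, adjusted p = 0.0571). In females it averaged 1.33 ± 0.50 (n = 5) and 1.65 ± 0.15 (n = 4), a difference of 0.33 that did not pass either (exact permutation p = 0.317, adjusted p = 0.476). Groups overlapped in both sexes, and with lead probes 0 of the 6 comparisons of this ratio passed. The smallest p that these group sizes allow is 0.00794, and p-values were adjusted over 12 ratio comparisons, 6 of which are not reported here.

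**Figure D4:**
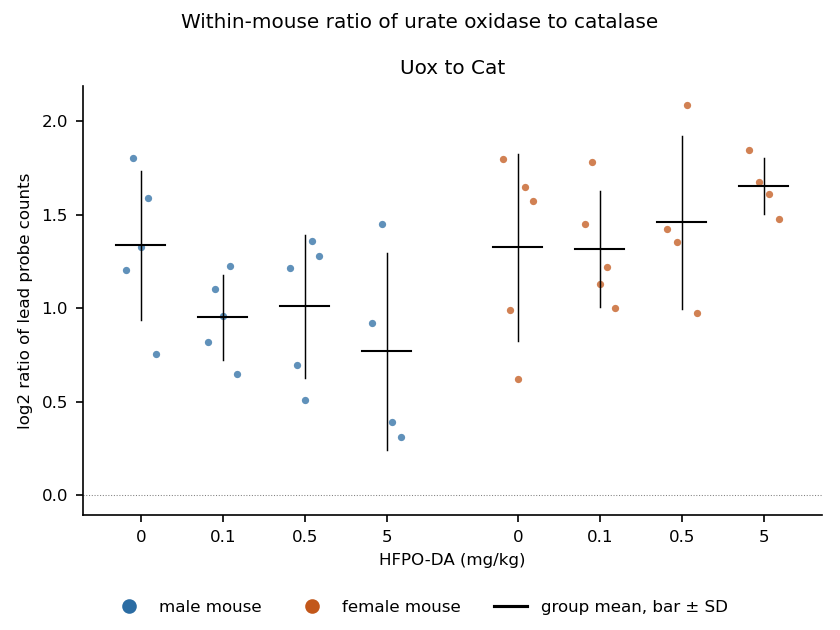
Log2 ratio of the lead probe counts of Uox to those of Cat within each mouse (y axis) against HFPO-DA dose (x axis), with males in blue, females in orange, lines for group means and bars ± SD over 4 or 5 mice. At every dose the treated group overlaps the control group of its sex, and at 5 mg/kg the values run from 0.31 to 1.45 in males and from 1.48 to 1.85 in females.

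The superoxide dismutases were not called in the edgeR fit reported here. Sod1 was at 383, 404, 440, 438 and 327 CPM in control males and at 601, 662, 583 and 410 CPM at 5 mg/kg, where 3 of 4 treated mice lay above all controls (log2 fold change 0.50 ± 0.20, adjusted p = 0.106). In females it was at 355, 268, 337, 198 and 196 CPM in controls and at 351 to 431 CPM at 5 mg/kg (log2 fold change 0.56 ± 0.20, adjusted p = 0.123). DESeq2 called both, the males at an adjusted p of 0.0262 and the females at 0.0459. With edgeR, 5 other settings called Sod1 in males (adjusted p 0.0448 to 0.0997), as did leaving out male 4 at 5 mg/kg or female control 1 or 5, and 3 other settings called it in females (0.077 to 0.0856), as did leaving out female control 1 or 3. The second Sod1 probe, Sod1_78851, gave smaller log2 fold changes, 0.17 in males and 0.31 in females, neither called.

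Sod2, the mitochondrial dismutase, was called in neither sex in that fit. In males it was at 95.9 to 135 CPM in controls and at 88.4 to 122 CPM at 5 mg/kg (log2 fold change -0.12 ± 0.17). In females it was at 83.7 to 146 CPM in controls and at 122 to 191 CPM at 5 mg/kg (log2 fold change 0.43 ± 0.16, adjusted p = 0.183). DESeq2 called the females, at an adjusted p of 0.0564, as did edgeR with the probes of Sod2 summed (0.0806) and without female control 1 (0.0773). The second probe, Sod2_30063, gave 0.07 for males and 0.37 for females, neither called. The groups overlapped in each sex, and the difference between the sexes of 0.55 ± 0.23 did not pass (unadjusted p = 0.0224, adjusted p = 0.389).

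Txn1, the cytosolic thioredoxin that recharges peroxiredoxins, was at 65.2 to 122 CPM in control males and at 92.3 to 171 CPM at 5 mg/kg (log2 fold change 0.51 ± 0.22, adjusted p = 0.143). In females it was at 59.5 to 110 CPM in controls and at 86.9 to 133 CPM at 5 mg/kg (0.55 ± 0.22, adjusted p = 0.219). DESeq2 called it in both sexes, the males at an adjusted p of 0.0582 and the females at 0.0974. With edgeR, Txn1 was called in males with DESeq2's size factors (0.0781), without the libraries under 3000000 counts (0.0945) and without male control 3 or male 3 at 5 mg/kg, and in females without female control 1 (0.0959). Groups overlapped in both.

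The peroxiredoxins showed no call at any dose. Prdx1, a cytosolic 2-cysteine peroxiredoxin, had a lead probe at 516 to 606 CPM in control males and 418 to 621 CPM at 5 mg/kg, and at 484 to 784 CPM in control females and 661 to 751 CPM at 5 mg/kg. Its log2 fold changes at 5 mg/kg were -0.11 (approximate 95% interval from -0.38 to 0.17) in males and 0.08 (from -0.20 to 0.35) in females, so that for this gene a change of the size of Gpx4 lay outside the interval. The other probes of Prdx1 gave males -0.04 and -0.24 and females -0.05 and 0.33. Prdx6, the 1-cysteine peroxiredoxin with phospholipase activity, was read at 6.75 to 27.5 CPM across all mice with a log2 fold change of 0.05 ± 0.34 for males and of 0.46 ± 0.33 for females. Prdx5 had only 325 counts over all 37 mice, its errors at 5 mg/kg exceeded 1.5 on the log2 scale, and its level could not be followed at this depth.

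At the lower doses no probe of the 10 genes was called against its controls by edgeR. Apart from Prdx5, log2 fold changes of the lead probes at 0.1 mg/kg ran from -0.19 to 0.20 for males and from -0.18 to 0.17 for females. At 0.5 mg/kg they ran from -0.14 to 0.23 for males and from -0.01 to 0.48 for females. With edgeR 0 of 10 lead probes were called at 0.1 mg/kg in either sex, where 0% of all tested probes were, and 0 of 10 at 0.5 mg/kg, where 0.625% in males and 0.113% in females were. In each of these 4 comparisons 0 of 10 lead probes had an unadjusted p under 0.05, and DESeq2 also called 0 of them. Such a p was reached by 7.14% and 10.3% of all tested probes in males at 0.1 and 0.5 mg/kg, and by 2.38% and 4.33% in females. Groups did not overlap for 2 probes in females at 0.5 mg/kg, Cat_79497 and Gpx4_31541, both higher than in controls and neither called, where 1.52% of all tested probes were separated upward. The separation of Gpx4_31541 rests on 5 to 12 counts per mouse against 0 to 6 in controls (0.575 to 1.10 CPM against 0 to 0.562 CPM).

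Of the 10 lead probes 8 were lower and 2 higher in untreated females than in untreated males. Their median log2 difference, female minus male, was -0.17, beside 0.06 over all tested probes. With edgeR 0 of 10 lead probes were called, 1 of 10 had an unadjusted p under 0.05, Sod1, and DESeq2 called 1, also Sod1, where edgeR called 2.6% of all tested probes and 10.9% had such a p. Sod1 averaged 271 ± 74.9 CPM in control females and 398 ± 46.3 CPM in control males (n = 5 each; log2 difference female minus male -0.56 ± 0.19, adjusted p = 0.142). Of the other probes Cat_79497 was called, at 1236 ± 96.3 CPM in females and 1864 ± 372 CPM in males (-0.59 ± 0.14, adjusted p = 0.0096), while the lead probe of Cat gave -0.26 (adjusted p = 0.595). Summed erythroid markers were at 56.7 to 112 CPM in control males and 0.885 to 11.8 CPM in control females, and the part of blood in these differences was not tested.

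Of 25 other tested genes of the same system (further peroxidases and peroxiredoxins, thioredoxin reductases, glutaredoxins and enzymes of glutathione supply), 1 rose and 1 fell in males at 5 mg/kg, and 0 were called in females by edgeR. Of all tested probes 4.21% rose and 8.49% fell in males, and 4.52% were called in females. The median log2 fold change of the 25 genes was 0.29 for males and 0.30 for females, beside -0.12 and -0.01 over all tested probes. Srxn1, sulfiredoxin, which repairs over-oxidised peroxiredoxins, rose from 4.34 ± 3.97 CPM (n = 5) to 29.7 ± 3.79 CPM (n = 4) in males (log2 fold change 2.77 ± 0.80, adjusted p = 0.0217). Prdx4, the peroxiredoxin of the endoplasmic reticulum, fell from 28.6 ± 7.33 to 14.1 ± 9.07 CPM in males (-1.01 ± 0.33, adjusted p = 0.0488). In females Srxn1 gave 1.42 ± 0.77 and Prdx4 -0.49 ± 0.32, neither called.

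Among 8 other tested genes for oxidases that release hydrogen peroxide, 1 rose and 3 fell in males at 5 mg/kg, and 1 fell in females. Of all tested probes 4.21% rose and 8.49% fell in males, and 2.26% fell in females. Pipox, the peroxisomal sarcosine and pipecolate oxidase, fell in both sexes at 5 mg/kg, with log2 fold changes of -1.06 for males and -0.86 for females. In males Hao1, glycolate oxidase, fell by 0.89, and Hao2, an oxidase of longer hydroxy acids, rose from a mean of 0.713 CPM to 16.4 CPM (log2 fold change 4.52 ± 0.67). In females Hao2 averaged 96.2 CPM in controls and 98.9 CPM at 5 mg/kg.

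Uox acts within purine breakdown, and 2 of the 5 tested genes of that pathway, which do not include Uox, fell in males at 5 mg/kg. Of all tested probes 8.49% fell in that comparison. Xdh, xanthine dehydrogenase, which makes the urate that Uox oxidises and is also counted among the 8 oxidases, was at 6.80 ± 5.29 CPM in control males and 0.839 ± 0.634 CPM at 5 mg/kg (log2 fold change -3.04 ± 0.98, adjusted p = 0.0434). Urad, which acts later than Uox in that pathway but not on its direct product, was at 7.79 ± 3.24 and 1.37 ± 1.75 CPM (-2.34 ± 0.63, adjusted p = 0.0125). Both rest on few counts. In females 0 of the 5 were called by edgeR, where 4.52% of all tested probes were, with values of -0.65 ± 0.84 for Xdh and -1.55 ± 0.59 for Urad.

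The start regions of the genes that moved at 5 mg/kg are shown from RefSeq (GRCm38.p6), as 250 bases before and 50 bases after the annotated start, since Gpx1 and Gpx4 rose together in males while Uox fell. Of the 10 genes 9 had such a window, and for Gpx4, with 4 windows, the one nearest to the start of the principal transcript was taken. Capitals mark GC boxes (GGGCGG) and CCAAT boxes (CCAAT), on either strand. These windows were also searched on both strands for AGGTCANAGGTCA, the direct repeat recognised by PPAR with RXR, for its single unit AGGTCA, which is contained in it, and for TGACNNNGC, the core of the antioxidant response element.
Gpx4, chr10:80053315-80053614, plus strand: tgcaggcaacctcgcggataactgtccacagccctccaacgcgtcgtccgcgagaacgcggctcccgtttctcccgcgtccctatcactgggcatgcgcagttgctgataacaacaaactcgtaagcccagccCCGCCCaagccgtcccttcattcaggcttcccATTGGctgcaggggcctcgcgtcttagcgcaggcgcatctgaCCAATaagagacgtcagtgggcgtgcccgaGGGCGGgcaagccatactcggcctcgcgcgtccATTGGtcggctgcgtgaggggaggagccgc
Gpx1, chr9:108338830-108339129, plus strand: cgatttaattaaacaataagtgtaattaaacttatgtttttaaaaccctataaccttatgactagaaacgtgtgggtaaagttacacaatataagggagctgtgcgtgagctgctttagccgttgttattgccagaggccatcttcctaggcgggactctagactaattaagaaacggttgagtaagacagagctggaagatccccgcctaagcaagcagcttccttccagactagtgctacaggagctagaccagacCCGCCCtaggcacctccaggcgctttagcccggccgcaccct
Uox, chr3:146596899-146597198, plus strand: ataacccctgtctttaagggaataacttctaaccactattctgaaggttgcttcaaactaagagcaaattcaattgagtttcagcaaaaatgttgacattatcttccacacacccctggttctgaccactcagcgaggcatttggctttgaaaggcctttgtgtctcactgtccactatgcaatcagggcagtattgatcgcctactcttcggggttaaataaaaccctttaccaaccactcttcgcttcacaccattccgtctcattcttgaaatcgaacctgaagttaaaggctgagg
The Gpx4 window holds 2 GC boxes and 3 CCAAT boxes and is 64.3% G and C. The Gpx1 window holds 1 GC box at 47% G and C, and the Uox window holds none of the 5 motifs at 43% G and C.

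Over all 32851 windows of the table a GC box occurs in 35.7%, a CCAAT box in 37.4%, the single unit in 16.3%, the antioxidant core in 12.4% and the direct repeat in 0.0396%. Among the 9 genes the direct repeat occurs in 0, the single unit in 1 (Cat) and the antioxidant core in 2 (Sod1 and Prdx1). These are matches of letters in short windows, and nothing follows from them about binding, which was not measured.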

How the data were processed

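The authors ligated and counted TempO-Seq probes in FFPE liver, and deposited raw counts per probe, with no normalization, for 37 of 40 mice, after removing 3 libraries of low depth or few probes. Their processing notes name bcl2fastq 2.17.1.14 and Bowtie. Probe positions and sequences were not used here. Mice were grouped by labelled sex and dose. In edgeR 4.0.16 (R 4.3.3), probes were kept by filterByExpr, scaled by TMM and fitted in 1 quasi-likelihood model with 8 group means. CPM are scaled by TMM. Ratios used log2 of counts scaled to CPM with a prior count of 2, and exact permutation tests. DESeq2 1.42.0 and other settings were alternatives. The edgeR script was tested on simulated data. Genes and coordinates follow GENCODE M21 (GRCm38) and RefSeq. All probes of the 10 genes were named, with up to 4 called genes of each other list, smallest adjusted p at 5 mg/kg first, and the 3 genes nearest to any member called in both sexes. Members, lists and tests were chosen with earlier results of these data known. Replicate numbers were given in accession order and only name mice. Columns not used numbered 0. Results that need 1 gene of these lists are not reported here.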

Additional observations from a re-analysis of the deposited data

Results flagged for a closer look

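In 4 of 80 groups (10 lead probes in 8 groups) 1 mouse stood apart from the others by Dixon's test, about the 1 in 20 that chance gives. Gpx4 in female control 1 was at 68.6 CPM, where the other control females were at 85.1 to 90.3 CPM. Prdx5 in male 4 at 5 mg/kg was at 2.78 CPM from 18 counts, where the other 3 were listed at 0. Prdx6 in female 1 at 0.5 mg/kg was at 12.8 CPM, where the others were at 20.8 to 22.1 CPM. Uox in female 2 at 5 mg/kg was at 3407 CPM, where the others were at 4867 to 5154 CPM.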

How the results depend on the processing

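The 4 calls on lead probes at 5 mg/kg, Gpx4 in both sexes and Gpx1 and Uox in males, were kept under the 9 alternatives at an adjusted p under 0.10, under the threshold of 0.05 and with each of the 37 mice left out, with log2 fold changes of 0.59 to 0.82 and 0.66 to 0.77 for Gpx4, 0.50 to 0.68 for Gpx1 and -1.08 to -0.70 for Uox. The counts moved: in males at 5 mg/kg 5 genes were called with DESeq2's size factors and with DESeq2 (Sod1 and Txn1 added), and 4, with Sod1, under a mean of at least 10 counts, robust, summed and thinned fits. In females 2 were called with those size factors, with a mean of at least 10 counts and with counts thinned to the smallest total, 3 with a robust fit, each sex fitted apart or probes summed, and 5 with DESeq2. DESeq2 also called more probes of all genes at 5 mg/kg, 2832 in males and 1269 in females, against 2359 and 839 in the reported fit. With DESeq2's size factors within edgeR these totals were 2337 and 871. Leaving out 1 mouse gave 1 to 5 in females, 2 without female control 2 or 3, 5 without female control 1 and 1 otherwise, and 3 to 4 in males. Between 5 and 0.5 mg/kg in males 1 was called with each sex fitted apart, at an adjusted p under 0.05 and without the libraries under 3000000 counts (an alternative added after seeing the data), also without male 1 at 0.5 mg/kg or male 3 at 5 mg/kg, and 5 with DESeq2. In females 0 were called with no filter and without 1 of females 1, 2 and 4 at 0.5 mg/kg or 1, 2 and 3 at 5 mg/kg. Between control females and males 1 was called with a mean of at least 10, robust, summed, thinned and DESeq2 fits, and without male 5 at 0.1 mg/kg or female control 1 or 3. The sex difference at 5 mg/kg gave 1 (Uox) with no filter and without male 2 at 5 mg/kg.

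With probes summed, the values in females at 5 mg/kg turned to 0.00306 for Cat and -0.0545 for Uox. Leaving out 1 mouse, values at 5 mg/kg crossed 0 for Cat (-0.21 to 0.00238), Prdx1 (-0.0144 to 0.15) and Uox (-0.0229 to 0.27) in females, and for Prdx5 (-6.41 to 0.29) and Prdx6 (-0.32 to 0.30) in males. None of these was called. At 0.1 and 0.5 mg/kg 18 of 40 log2 fold changes changed sign under some alternative, each at most 0.11 in size as reported, and 0 were called under any. The ratio of Uox to Cat with probes summed was -0.87 in males at 5 mg/kg (exact permutation, adjusted p = 0.0571, now called). In females it turned to 0.0561 at 0.1 mg/kg and to -0.11 at 0.5 mg/kg. With 1 mouse left out this ratio ran from -0.19 to 0.11 (0.1 mg/kg) and from -0.0761 to 0.29 (0.5 mg/kg) for females, and from -0.53, called without male control 5, to -0.27 for males at 0.1 mg/kg. The causes were not tested. No paired analysis was possible because replicate numbers were given in accession order and mark no pairing.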

Other observations

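Gpx1 and Gpx4 belong to the 24 genes for which GENCODE M21 annotates a selenocysteine codon, a list drawn up after their values were seen. With edgeR, 32 probes of 20 of these genes were tested. In males at 5 mg/kg 4 probes were called higher and 1 lower (15.6% of the 32, beside 12.7% of all tested probes), and in females 2 higher and 3 lower (15.6%, beside 4.52%). Those higher were both most counted probes of Gpx1, the lead probe of Gpx4 and Selenow in males, and both most counted probes of Gpx4 in females. The shares thus count the called probes of Gpx1 and Gpx4 that prompted the list. Nothing about selenoprotein genes in general follows from them. Sephs2, which makes the selenium donor for selenocysteine, was called lower in both sexes, and Selenop, the selenium carrier that liver secretes, was called lower with both probes in females. At 0.1 and 0.5 mg/kg 0 of the 32 were called in either sex.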
